A study of Sus scrofa with 8 samples.

Results

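Testis RNA of 8 Large White boars was read for the genes that bring cholesterol into cells, make sterols and control both. The genes were SCARB1, CYP51A1, TSPO, SREBF1, SREBF2 and ABCA1, and a probe counted for a gene if its RefSeq accession maps to that pig symbol or if the study's own list of differing probes names it so. CYP51, the pig symbol, was counted as CYP51A1. SREBF2 and ABCA1 had no probe under this rule and were not analysed here. The other 4 genes had 6 probes out of 43603 on the array, all found by accession and none in the study's list. SCARB1 and TSPO had 1 probe each, SREBF1 and CYP51A1 a pair each, and 1 of the CYP51A1 probes was printed in 5 spots.

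Each boar gave 1 RNA sample, hybridized to 1 one-colour (Cy3) Agilent porcine array. The diets ran from month 1 to month 10 of age. The 4 boars m_9597, m_9599, m_9499 and m_9527 were fed a standard diet with added methionine, choline, betaine, folate and the vitamins B6 and B12, which feed the transfer of methyl groups. The 4 boars m_9598, m_9600, m_9502 and m_9528 received the standard diet without these additions. The labels give no genetic change for either group, and whole testis was sampled, so each value is a mixture of germ cells and somatic cells. Full brothers of a single litter made up 4 of the boars, m_9597 and m_9599 on the supplemented and m_9598 and m_9600 on the control diet. The methods give 3 litters in all, with the diets allotted within litter, so that the remaining boars, here called the other boars, come from 2 litters, and which of them are litter mates is not given in the sources used here. The brothers shared a slide and the other boars the second slide, so that brothers against other boars is also slide against slide, and these cannot be told apart. The question was whether the diet changed gene expression in the testis.

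Steroid-making Leydig cells need cholesterol, which they take from lipoproteins, from stored esters and from their own synthesis. SCARB1 is the receptor on the cell surface that takes up cholesteryl esters from high-density lipoprotein. CYP51A1 is the enzyme that removes a methyl group from lanosterol on the way to cholesterol, and germ cells also use it to make a meiosis-activating sterol. TSPO is a protein of the outer mitochondrial membrane that binds cholesterol, and its part in steroid synthesis is debated. SREBF1 codes for a membrane-bound transcription factor that turns on genes of fatty acid and sterol synthesis, and ABCA1 would carry cholesterol out of the cell.

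The scanner marked 76.3% to 86.5% of an array as well above background. The median was 76.8% for supplemented and 82.6% for control boars, and the part of this gap in the results was not tested. Markers of germ cells and of testis somatic cells were both present. On every array the scanner found all 6 spermatid probes, all 11 Sertoli cell probes and 13 of the 14 Leydig cell probes clearly brighter than background. Each slide carried both diets, but always at the same positions (1 and 3 supplemented, 2 and 4 control), and an effect of position cannot be told apart from one of diet.

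No diet difference passed the test in any of the 6 probes. Values are given as log2 signal after quantile normalization, where a difference of 1 is a 2-fold difference. Every array read all 6 clearly above background, from 10.7 times the local background in the dimmest reading of SREBF1 to 4764 times in the brightest of SCARB1. By limma, 0 of the 6 reached a P-value under 0.05, where 689 of all 36982 present probes, or 1.86%, did. After Benjamini-Hochberg adjustment over the present probes 0 of the 6 and 0 of all probes were under 0.05. The ordinary equal-variance test also gave 0 of 6 under 0.05 before adjustment. The boars of the diets overlapped in each of the 6 probes, and they did not overlap in 1.13% of the present probes. The median difference of the 6 probes was -0.08 on the log2 scale, with 3 higher and 3 lower on the supplemented diet, against a median of -0.0028 for all present probes.

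**Figure D1:**
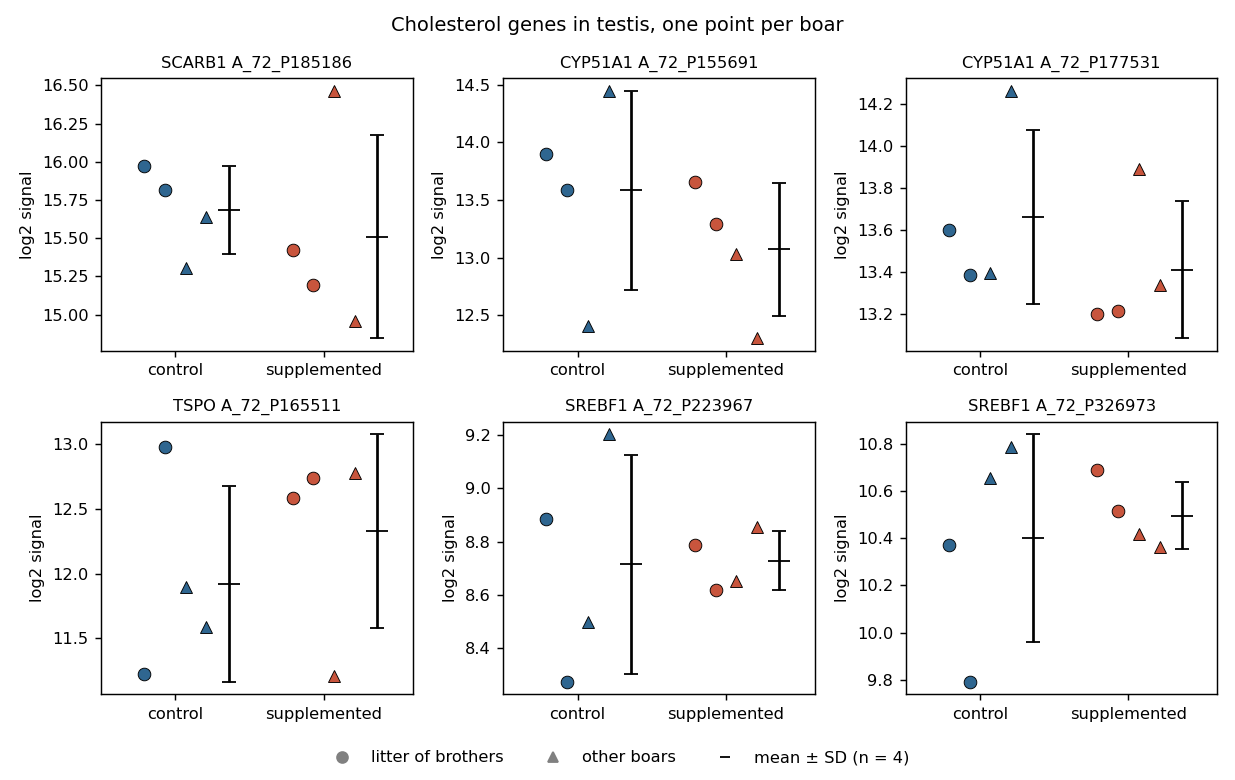
Log2 signal of the 6 probes of SCARB1, CYP51A1, TSPO and SREBF1, 1 panel per probe with its own vertical axis. Points are boars, circles the litter of brothers and triangles the other boars, and the bars give the mean ± SD of the 4 boars of a diet. The diets overlap in every panel, and in SCARB1 and TSPO a single supplemented boar, m_9499, lies away from the rest of its diet.

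SCARB1, the lipoprotein receptor, had the brightest of the 6 readings. On the supplemented diet its probe A_72_P185186 read 15.42 in m_9597, 15.19 in m_9599, 16.46 in m_9499 and 14.96 in m_9527. On the control diet it read 15.97 in m_9598, 15.82 in m_9600, 15.30 in m_9502 and 15.64 in m_9528. The highest and the lowest boar were thus both on the supplemented diet, which spanned 1.51 against 0.67 on the control diet. The means were 15.51 ± 0.66 (SD, n = 4) and 15.68 ± 0.29 (SD, n = 4), a log2 difference of -0.17 (standard error 0.31, adjusted p = 0.890 from limma). The 95% interval of the ratio ran from 0.547-fold to 1.44-fold, and 50.9% of the present probes had a smaller difference. The difference depended on single boars. Without m_9499 the log2 difference was -0.49 (P-value 0.0443 and adjusted p = 0.888 from limma), and without m_9527 it was 0.0098. Among the brothers both supplemented boars read lower than both control boars, with a difference of -0.59, while among the other boars it was 0.24. The interaction of diet with this split of the boars was 0.83 (standard error 0.64, adjusted p = 1.0 from limma).

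CYP51A1, the lanosterol demethylase, varied more between boars than most probes, and its probes lay on the same side of their means in 5 of 8 boars. The single-spot probe A_72_P155691 read 13.66 in m_9597, 13.29 in m_9599, 13.04 in m_9499 and 12.30 in m_9527 on the supplemented diet. On the control diet it read 13.90 in m_9598, 13.58 in m_9600, 12.41 in m_9502 and 14.45 in m_9528. The control boars held both the highest value and the second lowest. The log2 difference was -0.51 (standard error 0.43, adjusted p = 0.840 from limma), with an interval of 0.361-fold to 1.37-fold. It was the largest difference among the 6 probes, and 91.9% of all present probes had a smaller one. It had the same sign in the brothers, at -0.26, and in the other boars, at -0.76. Single boars weighed on it in either direction. Without m_9502 it was -0.90 (P-value 0.0226 and adjusted p = 0.279 from limma), but without m_9527 it was -0.25 and without m_9528 -0.22.

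The second CYP51A1 probe, A_72_P177531, is the mean of 5 spots. These spots differed within an array by an SD of 0.058 to 0.21, against an SD of 0.37 over the boars. It read 13.20 in m_9597, 13.21 in m_9599, 13.89 in m_9499 and 13.34 in m_9527 on the supplemented diet, and 13.60 in m_9598, 13.38 in m_9600, 13.39 in m_9502 and 14.26 in m_9528 on the control diet. Boar m_9528 was the highest in both probes, as it was in 25.5% of all present probes. The lowest was m_9597 here and m_9527 in the other probe, and these were the lowest in 5.36% and 23.1% of all present probes. The log2 difference of the diets was -0.25 (standard error 0.24, adjusted p = 0.840 from limma), with an interval of 0.578-fold to 1.22-fold, and -0.29 in the brothers and -0.21 in the other boars. Boar m_9528 carried most of it, since without that boar it was -0.051 (P-value 0.804 and adjusted p = 1.0 from limma), while without m_9499 it was -0.41.

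The gap between the CYP51A1 probes, A_72_P155691 minus A_72_P177531, was compared between the brothers and the other boars and between diets after its values had been seen. It was 0.26 ± 0.16 (SD, n = 4) in the brothers and -0.67 ± 0.58 (SD, n = 4) in the other boars (two-sided exact permutation test, p = 0.0571, with 0.0286 the smallest p that 4 against 4 allow). Among the other boars it was -0.85 in m_9499, -0.99 in m_9502 and -1.04 in m_9527, but 0.18 in m_9528, which lay among the brothers. Between the diets the gap gave p = 0.743 by the same exact permutation test. Where on the transcript each probe binds was not analysed here.

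**Figure D2:**
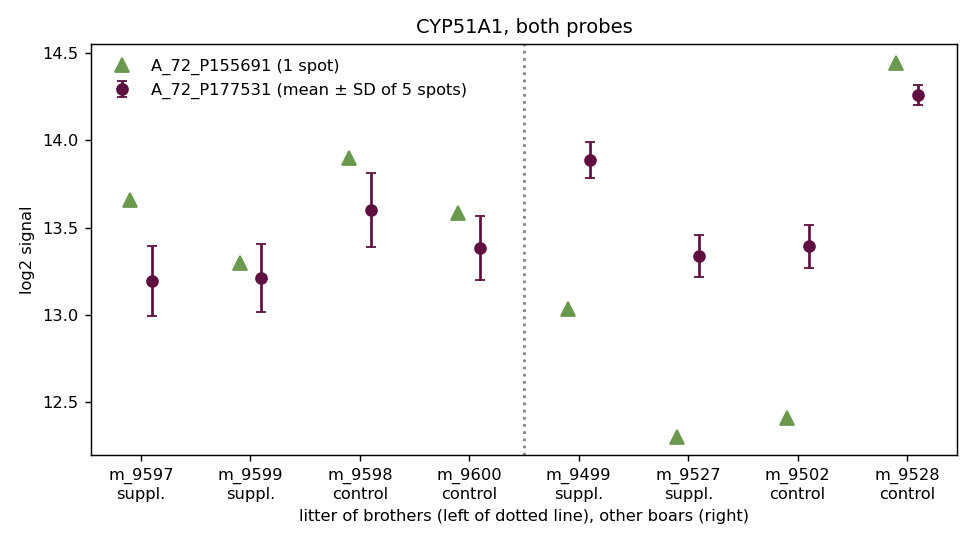
Log2 signal of both CYP51A1 probes in each boar, the brothers left of the dotted line and the other boars right of it; bars on A_72_P177531 are the SD of its 5 spots. The triangles of A_72_P155691 lie above the circles in the 4 brothers and in m_9528, and below them by 0.85 to 1.04 in the 3 remaining boars.

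TSPO, the mitochondrial cholesterol-binding protein, had widely spread readings within both diets. Its probe A_72_P165511 read 12.58 in m_9597, 12.74 in m_9599, 11.21 in m_9499 and 12.77 in m_9527 on the supplemented diet. On the control diet it read 11.23 in m_9598, 12.98 in m_9600, 11.90 in m_9502 and 11.59 in m_9528. Of the supplemented boars, 3 were high and m_9499 was the lowest of all 8, while m_9600 was the only high control boar. The SD over the 8 boars was 0.73, and 95.4% of the present probes had a smaller SD. The log2 difference was 0.41 (standard error 0.44, adjusted p = 0.844 from limma), with an interval of 0.669-fold to 2.62-fold, 0.56 in the brothers and 0.25 in the other boars. Without m_9499 it was 0.78 (P-value 0.0691 and adjusted p = 0.888 from limma), without m_9600 0.76, and without m_9598 0.17.

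SREBF1, the transcription factor, had the smallest differences of the 4 genes, and their sign turned with the boars taken. Its probe A_72_P223967 read 8.79 in m_9597, 8.62 in m_9599, 8.65 in m_9499 and 8.85 in m_9527 on the supplemented diet, and 8.88 in m_9598, 8.27 in m_9600, 8.50 in m_9502 and 9.21 in m_9528 on the control diet. The supplemented boars spanned 0.23 and lay inside the span of the control boars, which was 0.93. The log2 difference was 0.013 (standard error 0.21, adjusted p = 0.989 from limma), with an interval of 0.731-fold to 1.39-fold, and only 4.23% of the present probes had a smaller one. The second probe, A_72_P326973, read 10.69 in m_9597, 10.52 in m_9599, 10.42 in m_9499 and 10.36 in m_9527 against 10.37 in m_9598, 9.79 in m_9600, 10.65 in m_9502 and 10.78 in m_9528. Again the supplemented boars spanned less, 0.33 against 0.99. The SREBF1 probes lay on the same side of their means in 4 of 8 boars, though m_9528 was the highest and m_9600 the lowest boar in both. Over all present probes m_9528 was the highest in 25.5% and m_9600 the lowest in 10.2%. The log2 difference of A_72_P326973 came to 0.095 (standard error 0.22, adjusted p = 0.915 from limma). Without m_9600 it turned to -0.11. In this probe the sign differed between the brothers and the other boars, with 0.52 in the brothers and -0.33 in the other boars, an interaction of -0.85 (standard error 0.34, P-value 0.0422 and adjusted p = 1.0 from limma), and 2.0% of the present probes reached an interaction P-value under 0.05.

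Between the brothers and the other boars, with diet as a second term in limma, 0 of the 6 probes reached a P-value under 0.05, against 8.11% of the present probes, and 0 of all probes passed after adjustment. The largest differences, the other boars minus the brothers, were -0.56 for CYP51A1 A_72_P155691 and -0.51 for TSPO, followed by 0.37 for CYP51A1 A_72_P177531, and the smallest was -0.0083 for SCARB1. The other boars differed from each other more than the brothers did in SCARB1, with an SD of 0.64 against 0.36, and in A_72_P155691, with 0.99 against 0.25. In CYP51A1 A_72_P177531 it was 0.44 against 0.19, and in SREBF1 A_72_P223967 0.31 against 0.27. The brothers had the larger SD in TSPO, with 0.67 against 0.79, and in SREBF1 A_72_P326973, with 0.20 against 0.39. These SDs were not tested against each other. Over all present probes m_9527 and m_9528, both among the other boars, were the highest in 23.6% and 25.5% and the lowest in 23.1% and 26.6%.

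SCARB1 and TSPO lay on opposite sides of their means in 6 of 8 boars. CYP51A1 lay opposite TSPO in 7 of 8 (A_72_P177531) and 4 of 8 (A_72_P155691), and each SREBF1 probe in 4 of 8. Each boar was set against the mean of all 8. SCARB1 lay on the same side as the median of the Leydig cell marker list in 8 of 8 boars, TSPO in 2 of 8. For CYP51A1 this was 7 of 8 (A_72_P177531) and 6 of 8 (A_72_P155691), for SREBF1 4 of 8 (A_72_P223967) and 2 of 8 (A_72_P326973). The share of all present probes with such counts was not computed. The Leydig list held 14 present probes of 8 genes, and SCARB1 was not on it. Its probes did not move as one. Those highest in m_9499 were 8 of the 14, of CYP11A1, CYP17A1, STAR and LHCGR, against 7.99% of all present probes. Those lowest in m_9527 were also 8, against 23.1% of all present probes. The list holds several probes each of CYP11A1 and CYP17A1, so that its probes are not independent. Another 5 were highest in m_9528, of HSD3B1, CYP19A1, CYP19A3 and INSL3, against 25.5% of all present probes. INSL3, a hormone of mature Leydig cells, had an SD of only 0.085 over the boars. The median of the list was 1.09 above the mean of the boars in m_9499 and -0.92 in m_9527, both on the supplemented diet. It lay between -0.32 and 0.38 in the 6 other boars. Summed on the linear scale, the list reached 398225 to 552158 in supplemented and 434034 to 501818 in control boars. Between the diets 0 of the 14 probes reached a P-value under 0.05, against 1.86% of all present probes, and their median log2 difference was -0.25. In whole tissue, fewer Leydig cells and less RNA per Leydig cell cannot be told apart. The macrophage list was highest in m_9600, at 0.73 above its mean, and second highest in m_9527, at 0.46, and these boars also had the highest TSPO readings. It was 0.15 above its mean in m_9499, the boar with the lowest TSPO. In m_9597 and m_9599, which also had high TSPO, it was -0.0091 and -0.033. The macrophage list held 7 present probes of 4 genes, all 7 well above background on every array, and its linear sum was 2028 to 3308 in supplemented and 1415 to 3909 in control boars. The peritubular smooth muscle list had its highest values in the same pair of boars, 0.53 in m_9527 and 0.39 in m_9600, and lay below its mean in m_9499, m_9598 and m_9528, the boars with the lowest TSPO. It held 4 present probes of 2 genes, 3 of them well above background on every array, and its linear sum was 25568 to 44316 in supplemented and 18004 to 37198 in control boars. Both lists were set beside TSPO after the values were seen. The spermatogonia list was also highest in m_9600, at 0.72, with 0.43 in m_9597 and 0.32 in m_9599. It was -0.19 in m_9527 and 0.17 in m_9499. The endothelium list was highest in m_9600 as well, at 0.35, and -0.043 in m_9527. The part of these cell types in the SCARB1 and TSPO readings was not tested.

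**Figure D3:**
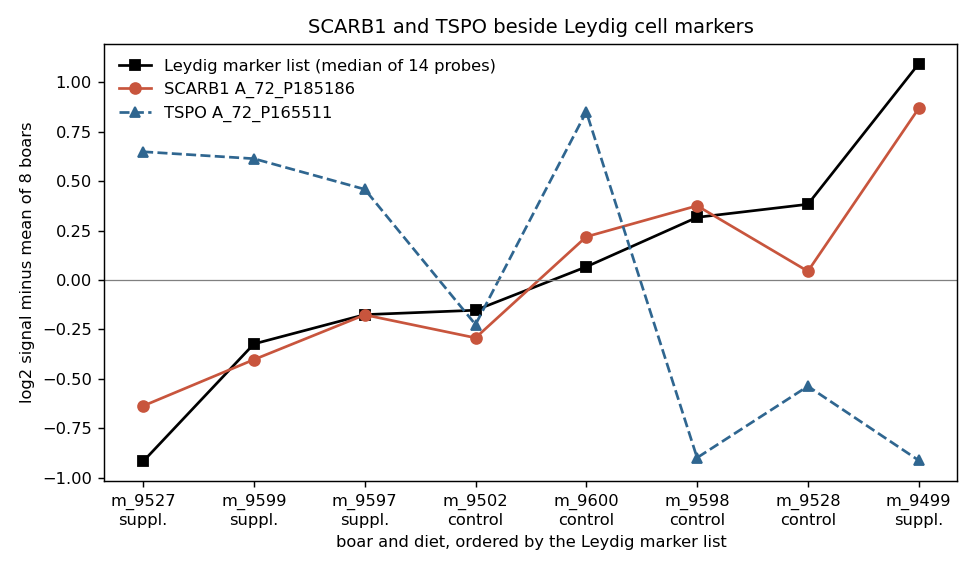
Log2 signal of SCARB1, of TSPO and the median of the 14 Leydig cell marker probes, each minus its mean over the 8 boars, with the boars ordered by the Leydig list. SCARB1 follows the list from m_9527 to m_9499, and TSPO is high in the 3 boars lowest for the list and in m_9600.

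The likeness of other genes was measured as the root mean square difference of standardized values (mean 0, SD 1) over the 8 boars, over 2122 other genes with a named and present probe. A value of 0 would be the same pattern. How near the nearest of so many genes would lie by chance over 8 boars was not tested. The genes nearest to SCARB1 were RPL5 (0.23), a protein of the large ribosomal subunit, GSTO1 (0.27), a glutathione transferase, and DNAJA4 (0.29), a chaperone. Standardizing hides the size of the variation: the SD over the boars was 0.16 for RPL5 and 0.48 for SCARB1. Nearest to CYP51A1 A_72_P177531 were RPN2 (0.30), TMEM59 (0.32) and ATPIF1 (0.34), the inhibitor of the mitochondrial ATP synthase. Nearest to TSPO were PTGS1 (0.24), the cyclooxygenase of prostaglandin synthesis, PEG10 (0.24) and KLF12 (0.43). Nearest to SREBF1 A_72_P326973 were FLT1 (0.29), a receptor of vascular endothelial growth factor, CAPNS1 (0.41) and CRP (0.41). On the same measure SCARB1 stood at 0.89 from CYP51A1 A_72_P177531 and at 1.71 from TSPO.

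The array gave 32 present probes for 23 of 74 other genes of cholesterol handling. By limma, 2 of these 32 reached a P-value under 0.05, NCEH1 with a higher and CD36 with a lower mean in the supplemented boars, and 0 had an adjusted p under 0.05. NCEH1 is on the list only because the study named it among probes that differed in these boars, as is APOB. Of the 30 probes named by accession 1 reached a P-value under 0.05, against 1.86% of all present probes. The median log2 difference was -0.043, with 12 probes higher and 20 lower. NCEH1 (A_72_P261942), an enzyme that splits stored cholesteryl esters, was higher in the supplemented boars, with 10.33 ± 0.26 against 9.94 ± 0.17 (SD, n = 4 each), a log2 difference of 0.39 (standard error 0.17, adjusted p = 0.840 from limma). CD36 (A_72_P303204), a scavenger receptor that takes up lipids, was lower, with 6.66 ± 0.48 against 7.19 ± 0.19, a log2 difference of -0.54 (standard error 0.24, adjusted p = 0.840 from limma). This CD36 probe was dim, at 2.33 to 8.87 times the local background. It was low in m_9527, at 5.98, and 6.68 to 7.0 in the rest of the supplemented boars. The control boars lay between 6.96 and 7.42. Without m_9527 the difference was -0.31 (P-value 0.105 and adjusted p = 1.0 from limma), no longer under 0.05. The other CD36 probe, A_72_P393078, had a difference of -0.028. In 1 of the 32 probes, and in 0 of the 30 named by accession, the diets were fully separated, as they were in 1.13% of all present probes. This was APOB (A_72_P227597), the protein of low-density lipoprotein, with 5.93 ± 0.084 against 6.20 ± 0.19, pointed out here after its values were seen. It was dim as well, at 2.13 to 3.86 times the local background.

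**Figure D4:**
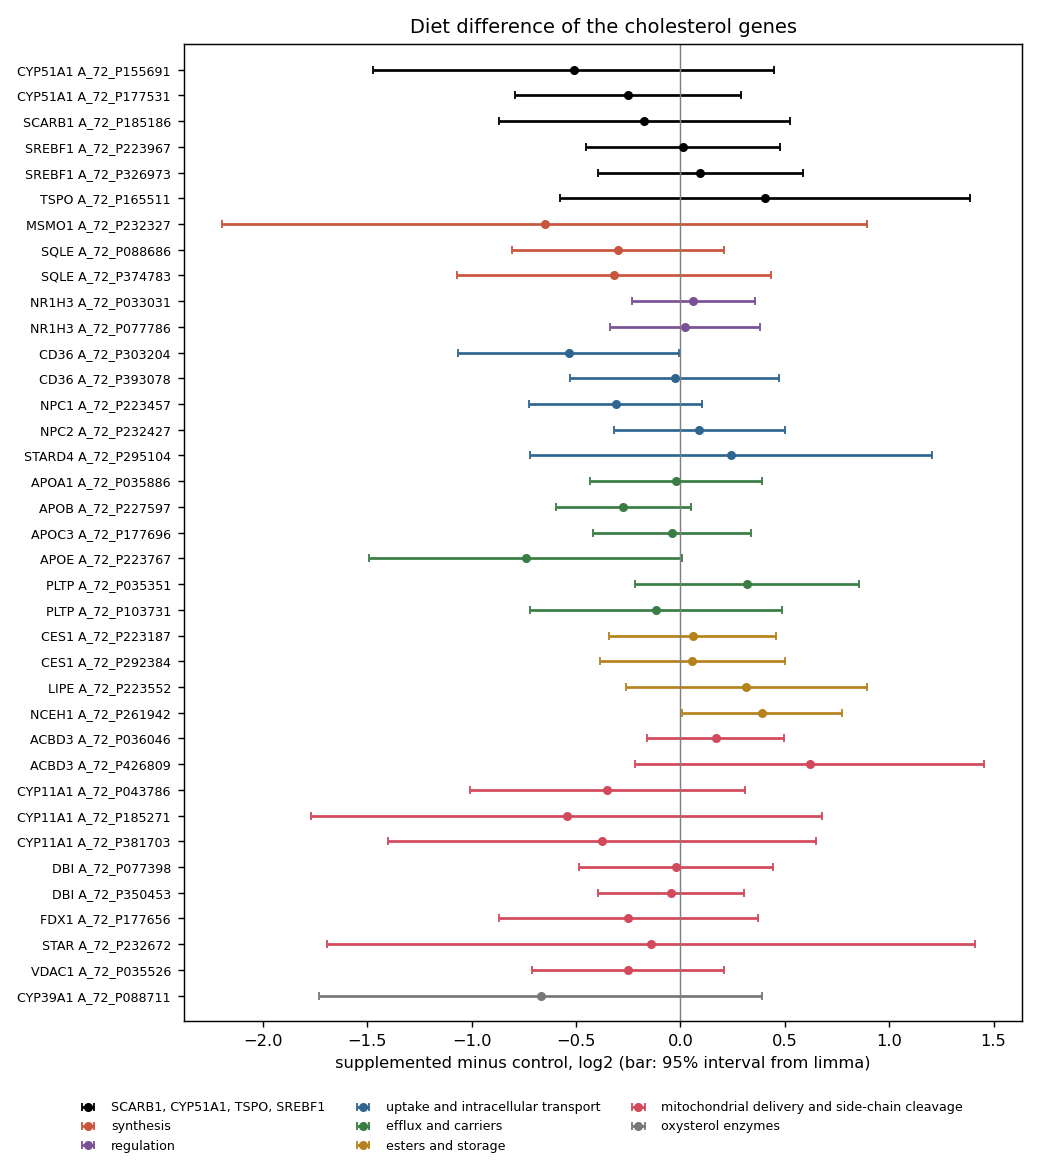
Supplemented minus control diet on the log2 scale for the 6 probes of SCARB1, CYP51A1, TSPO and SREBF1 (black) and for probes of other cholesterol genes by role, with 95% intervals from limma without adjustment. The intervals of NCEH1 A_72_P261942 and CD36 A_72_P303204 end just short of 0, and all others shown include it.

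By role, sterol synthesis beside CYP51A1 was read by probes of SQLE and MSMO1, among others. The SQLE probes, for squalene epoxidase, had log2 differences of -0.30 (A_72_P088686) and -0.32 (A_72_P374783), and MSMO1, a methylsterol oxidase that acts after CYP51A1, had -0.65 with a standard error of 0.69. MSMO1 was lowest in m_9527, at 8.47, and highest in m_9528, at 11.57. Over all present probes m_9527 was the lowest in 23.1% and m_9528 the highest in 25.5%. Of the probes of uptake and transport inside the cell, NPC1 had -0.31, NPC2 0.091 and STARD4 0.24. Of the carriers, APOE had -0.74 (standard error 0.33, adjusted p = 0.840 from limma), with 8.62 to 9.30 on the supplemented and 8.67 to 10.29 on the control diet. NR1H3, the liver X receptor that senses oxysterols, had 0.062 and 0.023 in its probes.

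Delivery to the mitochondrion and the first step of steroid synthesis were read by 10 probes of 6 genes, with TSPO left out. Of these 10, 0 reached a P-value under 0.05, against 1.86% of all present probes. On the supplemented diet 8 were lower, against 50.5% of all present probes, among them DBI at -0.045 and -0.022. The 2 higher probes both belong to ACBD3, which binds acyl-coenzyme A, at 0.62 (A_72_P426809) and 0.17 (A_72_P036046). TSPO, which has the same role, was higher too, with a log2 difference of 0.41 and its lowest reading in m_9499. STAR, which moves cholesterol into the mitochondrion, read 10.84 in m_9597, 10.66 in m_9599, 13.69 in m_9499 and 10.15 in m_9527 against 11.10 in m_9598, 12.18 in m_9600, 10.80 in m_9502 and 11.82 in m_9528. As in SCARB1, m_9499 was the highest and m_9527 the lowest boar, and the log2 difference of the diets was -0.14 (standard error 0.69, adjusted p = 0.964 from limma). Boar m_9499 was the highest in 8 of the 10 probes, where it was the highest in 7.99% of all present probes, and m_9527 was the lowest in 7 of the 10, where it was the lowest in 23.1%. The probes share boars and include several probes of CYP11A1 and DBI, so that they are not independent. STAR and CYP11A1 are also on the Leydig list.

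**Figure D5:**
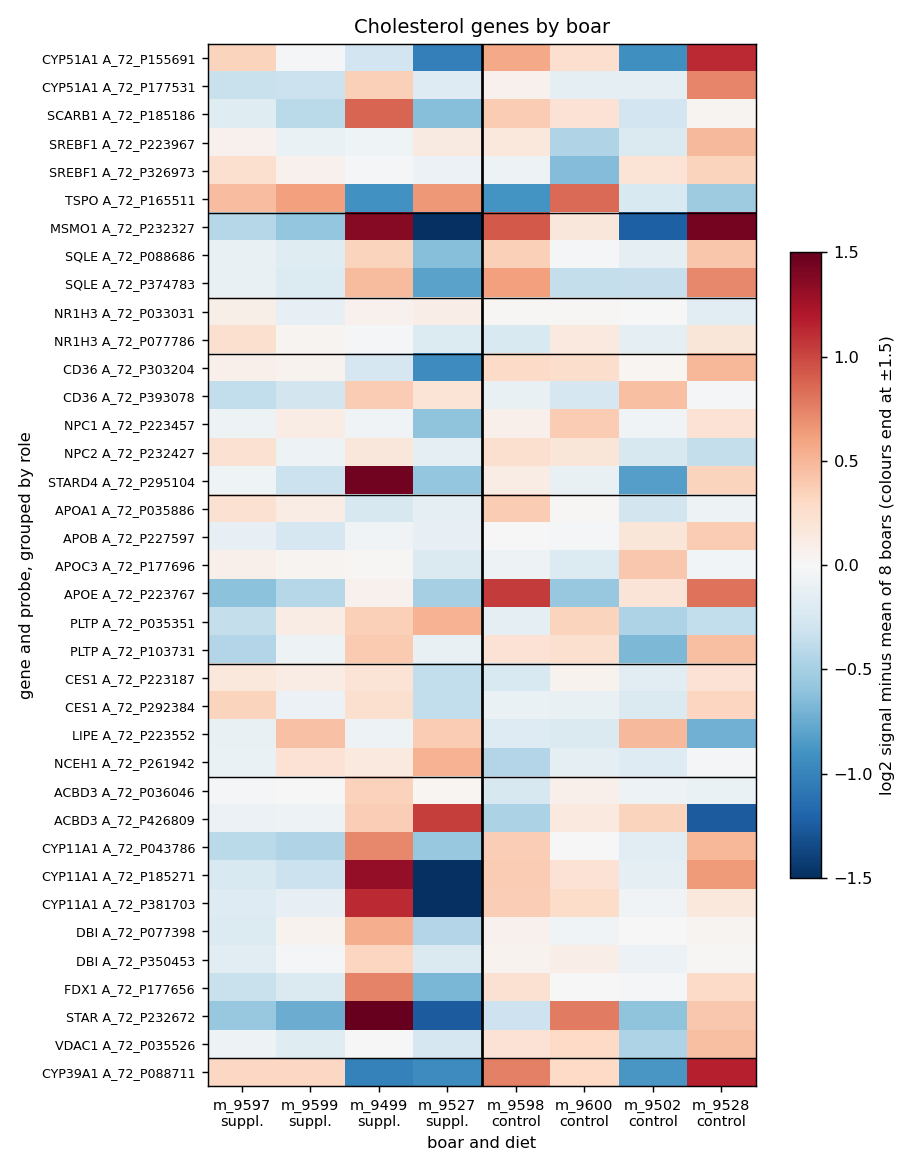
Log2 signal minus the mean of the 8 boars for probes of cholesterol genes (rows, grouped by role) in the 8 boars (columns, the supplemented diet left of the line), red above and blue below the mean, with colours ending at 1.5. STAR, CYP11A1, FDX1, STARD4 and SCARB1 are high in m_9499, and MSMO1, SQLE and CYP11A1 are low in m_9527, both on the supplemented diet.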

How the data were processed

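Testis RNA of 8 boars, 4 per diet, was hybridized to 1 Agilent array each. The authors deposited for each boar the spot intensity as Agilent Feature Extraction 10.5.1.1 wrote it per the file headers, not normalized between arrays, and a table of log2 values, which differ from the values computed here by a median of 0.0286 to 0.0305 per array. It holds the 35258 probes found present on 3 or 4 arrays of either diet.

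Here the gMedianSignal of 43803 spots, controls left out, was taken as log2 and brought to a common distribution by quantile normalization with no background subtracted, which understates changes of dim probes, and spots of a probe were averaged. A probe was present if, for either diet, 2 or more of its 4 arrays had 50% of the spots with a signal above 25 and the flag gIsWellAboveBG. Diets were compared with limma 3.58.1 (lmFit, eBayes; R 4.3.3). Tests were two-sided, and P-values were adjusted by Benjamini-Hochberg over the 36982 present probes. The fit was tested on simulated data. Names came from RefSeq (assembly Sscrofa11.1, names only) for 2628 of 3201 probes with an NM or XM accession, and from the study's list of differing probes. The columns of the authors' own comparison in that list were not used.

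The genes and lists were chosen with earlier results of these data known. The probes named were all probes of SCARB1, CYP51A1, TSPO and SREBF1, the 3 other pathway probes with the smallest P (NCEH1, CD36 and APOE), and the 3 genes nearest in pattern to the brightest probe of each gene. Probes named beyond this rule were chosen for their role or after their values were seen. No lists were tested as sets. An item among the pathway genes is counted but not reported here. The marker lists without such a result in the text (Sertoli cells, spermatids, spermatogonia, spermatocytes, peritubular cells, macrophages, endothelium, duct epithelium, fat cells) had 0 probes with P under 0.05 between the diets. The red blood cell list had no named probe. The alternatives were other signal columns, normalizations, filters and tests, a block of 2 levels (the brothers and the other boars, which merges their 2 litters), each set of 4 boars alone, the deposited log2 values, removal of outlier spots each boar left out and, added after seeing the data, pathway probes named by accession only. The boars of a group are different animals, and their number limits the precision.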

Additional observations from a re-analysis of the deposited data

Results flagged for a closer look

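Among the 76 groups of 4 boars, 1 per probe and diet, 6 held a boar whose gap to the rest passed the 95% critical value of Dixon, where chance flags about 1 in 20 groups, or 3.8 here. TSPO (A_72_P165511) read 11.21 in the supplemented boar m_9499 against 12.58 to 12.77 in the other supplemented boars. CYP11A1 (A_72_P043786) read 9.09 in the same boar against 7.79 to 7.97, and ACBD3 (A_72_P036046), which binds acyl-coenzyme A, read 12.57 against 12.20 to 12.25. NR1H3 (A_72_P033031) read 7.11 in the supplemented boar m_9599 against 7.29 to 7.32 and 7.05 in the control boar m_9528 against 7.24 to 7.25. CES1 (A_72_P223187) read 10.58 in the supplemented boar m_9527 against 11.07 to 11.16.

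The diet difference differed between the brothers and the other boars in 2 of the 38 probes at an unadjusted P-value under 0.05, against 2.0% of all present probes. For SREBF1 (A_72_P326973) the other boars minus the brothers gave -0.85 (P-value 0.0422, adjusted p = 1.0 from limma). For the phospholipid transfer protein PLTP (A_72_P035351) it was 1.08 (P-value 0.0196, adjusted p = 1.0 from limma).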

How the results depend on the processing

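No probe of SCARB1, CYP51A1, TSPO or SREBF1 had an adjusted p under 0.05 under any of the 22 alternatives. A P-value under 0.05 was reached by 1 probe in the brothers alone (SCARB1) and 0 to 1 with each boar left out, with SCARB1 without m_9499 and CYP51A1 without m_9502. Both CYP51A1 probes and TSPO kept their sign throughout but not their size: leaving out single boars gave -0.90 to -0.22 for A_72_P155691, -0.41 to -0.051 for A_72_P177531 and 0.17 to 0.78 for TSPO. The SCARB1 difference was 0.24 among the other 4 boars, and leaving out single boars gave -0.49 to 0.0098, highest without m_9527. For SREBF1, A_72_P223967 gave -0.062 with array weights, -0.10 in the other 4 boars and -0.13 to 0.18 (below 0 without m_9597, m_9600, m_9502 or m_9527) with each boar left out, and A_72_P326973 gave -0.33 in the other 4 boars and -0.11 to 0.22 with each boar left out, lowest without m_9600. Of the 32 other pathway probes, 2 had a P-value under 0.05, and this number was 1 with gProcessedSignal, with probes well above background on all arrays, with trended robust limma and in the other 4 boars, 7 in the brothers, 1 among the 30 named by accession (chosen after seeing the data), and 0 to 6 on omitting single boars: 6 without m_9499, 4 without m_9502, 1 without m_9599, m_9600 or m_9528, and 0 without m_9598 or m_9527. These counts are to be read beside those over all 36982 present probes, of which 689 had a P-value under 0.05. This number was 5830 with array weights, 2381 in the brothers and 359 in the other 4 boars. It was 1019 with gProcessedSignal, 718 with trended robust limma and 566 of the 30991 probes well above background on all arrays. On omitting single boars it was 339 to 6155: 6155 without m_9502, 1213 without m_9600, 751 without m_9499, 708 without m_9599, 568 without m_9597, 438 without m_9527, 369 without m_9598 and 339 without m_9528. The fits in 4 boars have 2 per diet. No paired analysis was possible because the labels give no replicate numbers and the sources used here do not say which of the other boars are litter mates, so that the 3 litters could not be fitted as blocks. A block of brothers against other boars, which merges 2 litters, gave 726 present probes with a P-value under 0.05 and changed no call of these genes.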
